A study of Homo sapiens with 6 samples.

Results

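Knockdown of EHMT2 was examined in HCT116 cells, an established human colorectal carcinoma line, that had acquired resistance to 5-fluorouracil. The comparison set 1 RNA-seq library of resistant cells given EHMT2 siRNA against 1 library of resistant cells given control siRNA, which are 2 of the 6 libraries in the series. Genes entered it when their FPKM (fragments per kilobase of transcript, scaled to the mapped fragments of the library) was 1 or more in either library, which held for 11750 of 19942 genes. The other 4 libraries were untransfected resistant cells, and parental (wild-type) cells that were untransfected, given control siRNA or given EHMT2 siRNA, with 1 library in each group. The siRNA sequences, their dose, the time of harvest, the drug level and the way resistance was raised are not given in the labels, nor whether the resistant line is 1 clone. With 1 library a side nothing here could be checked against replicates, so neither p-values nor errors are given. "Higher" and "lower" describe these libraries, and the number of reads behind each value is unknown.

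EHMT2 encodes G9a, a lysine methyltransferase that places mono- and dimethyl marks on histone H3 lysine 9 (H3K9). It works as a dimer with the related enzyme GLP, encoded by EHMT1, and the zinc finger proteins WIZ and ZNF644 help to bring the dimer to chromatin. Dimethylated H3K9 is found mostly at silent genes in euchromatin, and G9a also methylates proteins other than histones. 5-Fluorouracil is a pyrimidine analogue whose products block thymidylate synthase and are built into RNA and DNA.

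Differences are log2 ratios of FPKM with 1 added to each value, which draws the ratio of low genes towards 0. A ratio of 1 is a 2-fold difference and a ratio of -1 the same size in the other direction. Values for 3 resistant libraries are given in the order untransfected, control siRNA, EHMT2 siRNA, and those for parental cells in the same order.

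The 6 libraries each held 11240 to 11722 genes at 1 FPKM or more. Of 12 colorectal epithelial markers 10 were compared. Their summed level was 2717, 2287 and 2407 FPKM in resistant cells and 1809 to 2430 FPKM in parental cells. With EHMT2 siRNA 3 of these 10 lay above and 7 below the resistant control library, and their median ratio was -0.26. Against untransfected resistant cells 2 were above and 8 below (median -0.86). In the parental siRNA comparison 6 were above and 4 below (median 0.04). VIL1, the epithelial actin-bundling protein villin, was listed at 0 in all 6 libraries. Of 12 fibroblast markers and of 12 immune markers 1 each reached 1 FPKM in the compared pair, COL1A1 at 3.35 and 4.92 FPKM and CD68 at 4.99 and 1.47 FPKM with control and EHMT2 siRNA, and CD68 shares 85.8% of its exonic bases with other genes. The untransfected resistant library stood apart from the other 5. On the chromosome 18 short arm the 41 genes had a median ratio of resistant over parental cells of 1.60 without transfection, 0.14 with control siRNA and 0.01 with EHMT2 siRNA. The compared pair was thus close to parental cells on this arm, and its resistance is known from the labels only. The reason was not tested. In addition 5 genes (CPVL, CYP24A1, IAH1, KRT23 and RNF43) were below 1 FPKM in the untransfected resistant library and at 5 FPKM or more in every other library, against 0 or 1 such gene for each other library. Values against untransfected cells are therefore printed beside the siRNA comparison and do not replace it. They share the EHMT2 siRNA library with it, so similar values in both are not independent.

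EHMT2 itself (chr6:31879759-31897687 on GRCh38, minus strand, in the class III region of the major histocompatibility complex) was at 27.3, 19.5 and 3.80 FPKM in the 3 resistant libraries. The EHMT2 siRNA library thus held 19.5% of the level in the control siRNA library, which is -2.09 on the log2 scale. Parental levels were 19.8, 31.7 and 8.58 FPKM (ratio -1.77). EHMT2 had the 19th lowest ratio of the 8590 genes at 5 FPKM or more in either resistant siRNA library. EHMT1, which encodes the partner GLP, was at 20.04, 16.5 and 15.5 FPKM (ratio -0.08).

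Among the 23 genes for H3K9 methyltransferases, G9a-GLP partners and readers of the mark, 9 lay above and 14 below the control library and the median ratio was -0.08. The only member besides EHMT2 that was 2-fold lower was SUV39H1, which adds the trimethyl mark to H3K9, at 3.002 FPKM with control and 0.975 with EHMT2 siRNA. WIZ had a ratio of -0.70 and ZNF644 of -0.07. UHRF1, which reads methylated H3K9 and hemimethylated DNA, was at 33.6, 17.4 and 9.91 FPKM. At the other end stood CBX1, which encodes the reader HP1 beta, at 85.6 FPKM with control and 129 with EHMT2 siRNA (0.58), and the H3K9 demethylase KDM3A at 10.9 and 16.2 FPKM (0.54).

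With EHMT2 siRNA 613 genes (5.22%) were at least 2-fold higher and 475 (4.04%) at least 2-fold lower than with control siRNA. The balance turned with the scaling, to 504 higher and 566 lower with median-centred ratios and 507 and 522 after quantile normalisation. At 4-fold and as first scaled the counts were 35 and 27. The median ratio of all genes compared was 0.06, with 54.3% of genes above and 45.7% below control. Of the 613 higher genes 67 were listed at 0 in the control library, and of the 475 lower genes 19 were listed at 0 in the EHMT2 siRNA library. The higher genes started from a low level, a median of 3.85 FPKM with control siRNA, and the lower genes from a median of 19.8 FPKM, against 8.85 FPKM for the rest. Genes past 2-fold also had shorter transcripts, with a median of 3120 bases for the higher and 2964 for the lower genes against 3706 for the others. Their GC content was a median 51.5% and 52.95% against 48.4%. The part of length and GC content in the ratios was not tested.

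The same siRNA comparison in parental cells shares no library with the resistant pair. There 894 of 11948 genes (7.48%) were at least 2-fold higher and 419 (3.51%) lower. Over the 11545 genes compared in both lines, the ratios had a Pearson r of 0.826 and a Spearman rho of 0.827, given as a description, since genes do not stand in for replicates. The median gap between the ratios of a gene in both lines was 0.21 and the 95th percentile of that gap was 0.70. Of the genes 2-fold higher in resistant cells 399 were 2-fold higher in parental cells, which is 65.1% of the resistant and 44.6% of the parental genes so counted. For genes 2-fold lower the shared number was 271, or 57.1% and 64.7%. Of the resistant genes past 2-fold that were also compared in parental cells, 571 of 582 higher genes and 457 of 464 lower genes lay on the same side of 0. Only 4 and 3 were 2-fold in the opposite direction.

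**Figure D1:**
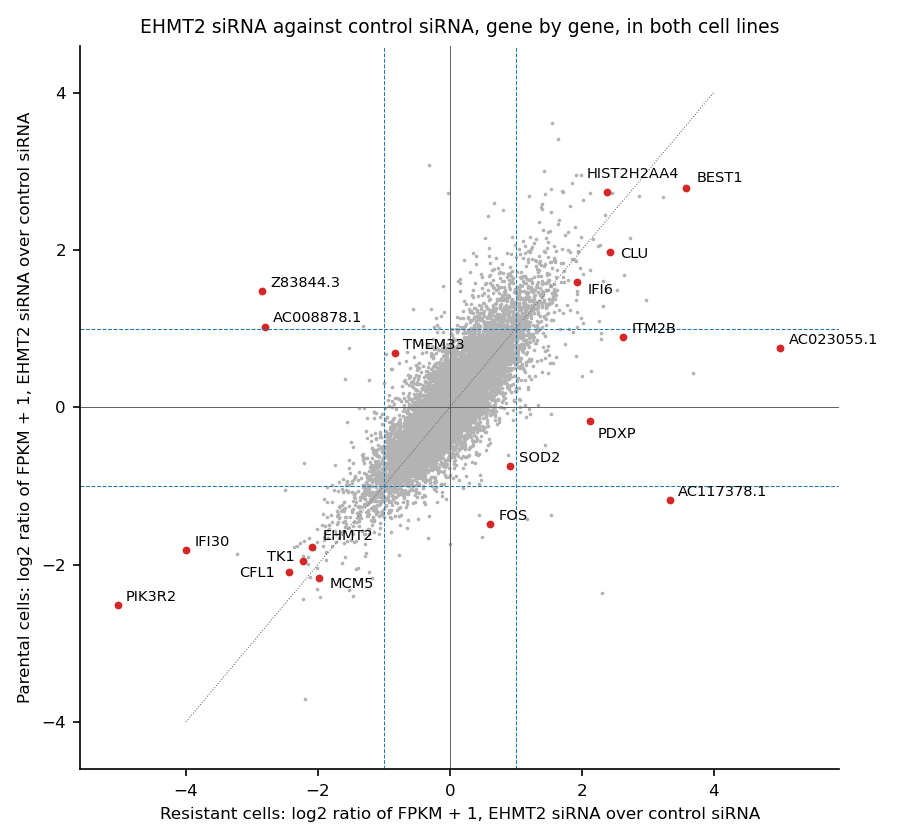
Each point is 1 of 11545 genes, placed by its log2 ratio of FPKM + 1 (EHMT2 siRNA over control siRNA) in resistant cells on the horizontal axis and in parental cells on the vertical axis. Dashed lines mark 2-fold, the dotted line equal ratios, and red points are named genes. Most genes lie along the dotted line, while AC023055.1, PDXP and AC117378.1 lie to its right and Z83844.3 and AC008878.1 to its left.

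Against the untransfected resistant library 890 of 11871 genes (7.5%) were at least 2-fold higher and 878 (7.4%) lower with EHMT2 siRNA. The median ratio of chromosome 18 short-arm genes was -1.41 in that reading and -0.05 against control siRNA.

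Among the 15 genes with the highest ratios several encode proteins with known roles. CLU, a secreted chaperone (clusterin), was at 155, 55.4 and 304 FPKM in resistant cells and 50.5, 71.9 and 287 FPKM in parental cells. It was the most abundant of the 15 with EHMT2 siRNA, and both EHMT2 siRNA libraries were above the other 4. OSGIN1, an oxidative stress response gene, was at 16.3, 4.79 and 30.9 FPKM in resistant and 5.72, 4.75 and 36.9 FPKM in parental cells, again highest in the EHMT2 siRNA libraries. ITM2B, a membrane protein cleaved in the secretory pathway, was at 54.3, 12.6 and 83.4 FPKM in resistant cells. Its ratio was 2.63 in resistant and 0.89 in parental cells, and against untransfected cells it was 0.61.

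TNNC1, the calcium-binding subunit of slow muscle and cardiac troponin, was at 0.992, 0.954 and 13.3 FPKM in resistant cells. Its parental levels were 2.05, 1.07 and 12.3 FPKM, so the 2 EHMT2 siRNA libraries stood above all others. TEX29, a testis-expressed gene, was at 0.188, 0.208 and 7.02 FPKM and at 0, 0.291 and 4.76 FPKM in parental cells. ACAP1, which encodes a GTPase-activating protein for ARF6, was listed at 0 with control siRNA and at 8.43 FPKM with EHMT2 siRNA. ARMH1 was likewise listed at 0 and then at 5.25 FPKM, with 0.673 FPKM in untransfected cells. These 4 genes were low or listed at 0 in all libraries without EHMT2 siRNA.

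The histone genes HIST2H2AA4, HIST2H2AA3 and HIST1H2BC (2.39, 2.37 and 2.36) completed the 15 together with 5 genes whose exons overlap others or whose partner moved as well. AC023055.1 had the highest ratio, from 0.279 to 40.3 FPKM, but 90.1% of its exonic bases are shared with DNAJC14 and SARNP. SARNP went the other way, from 63.7 to 27.5 FPKM. AL121900.2 (shared with DTD1 and SMIM26) and AC117378.1 (shared with PRIM1 and NACA) share 100% of their exonic bases and were listed at 0 with control siRNA. AL157935.2 shares 88.8%. BEST1, a chloride channel gene, was at 0.683 and 19.3 FPKM and shares 14.2% of its exonic bases with FTH1, the ferritin heavy chain, which was at 1604 and 3109 FPKM. Reads at such loci can be assigned to either gene, so the levels of these 5 genes are uncertain.

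The lowest ratios belonged to a similar mixture. PIK3R2, a regulatory subunit of phosphoinositide 3-kinase, was at 31.8 FPKM with control siRNA and listed at 0 with EHMT2 siRNA, but also stood at 0.581 FPKM in untransfected cells. IFI30, a lysosomal thiol reductase, was at 15.5, 19.7 and 0.294 FPKM. Both share exons with the readthrough gene AC007192.1, which was at 26.9, 1.33 and 6.57 FPKM, lowest in the library where PIK3R2 was highest. Z83844.3 (8.40 to 0.301 FPKM) overlaps PDXP (2.73 to 15.2 FPKM) in the same way, and WDR83OS, AC008878.1, ABHD14A-ACY1 and BLOC1S5-TXNDC5 share 80.1% to 100% of their exonic bases. These 7 of the 15 lowest genes are therefore uncertain. In all, 13.9% of the genes 2-fold higher and 15.8% of those 2-fold lower overlap another gene over at least 25% of their exonic bases, against 8.84% of the other genes.

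The other 8 of the lowest genes share less than 25% of their bases. CFL1 encodes cofilin, which severs actin filaments. It was at 592, 544 and 99.4 FPKM in resistant and at 472, 548 and 127 FPKM in parental cells, so that both EHMT2 siRNA libraries lay well below the other 4. EI24, an endoplasmic reticulum protein linked to autophagy, was at 58.2, 71.3 and 13.0 FPKM in resistant and 55.0, 86.1 and 24.4 FPKM in parental cells. LSM2, a subunit of the LSM ring that binds U6 RNA and decapping substrates, was at 36.9, 42.6 and 7.998 FPKM in resistant and 34.3, 37.8 and 10.7 FPKM in parental cells. For all 3 genes the EHMT2 siRNA library was the lowest of its line in both lines. NRGN, which encodes a calmodulin-binding protein, was at 15.7, 12.0 and 1.91 FPKM. NME4, a mitochondrial nucleoside diphosphate kinase, was at 1.59, 45.8 and 8.98 FPKM, and OR51B5, an olfactory receptor gene in the beta-globin region, at 7.51, 38.8 and 7.61 FPKM. In contrast to the former 4 genes, the untransfected level of NME4 and OR51B5 was at or below that with EHMT2 siRNA. The remaining 2, EEF1B2 and TK1, are described with their groups.

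**Figure D2:**
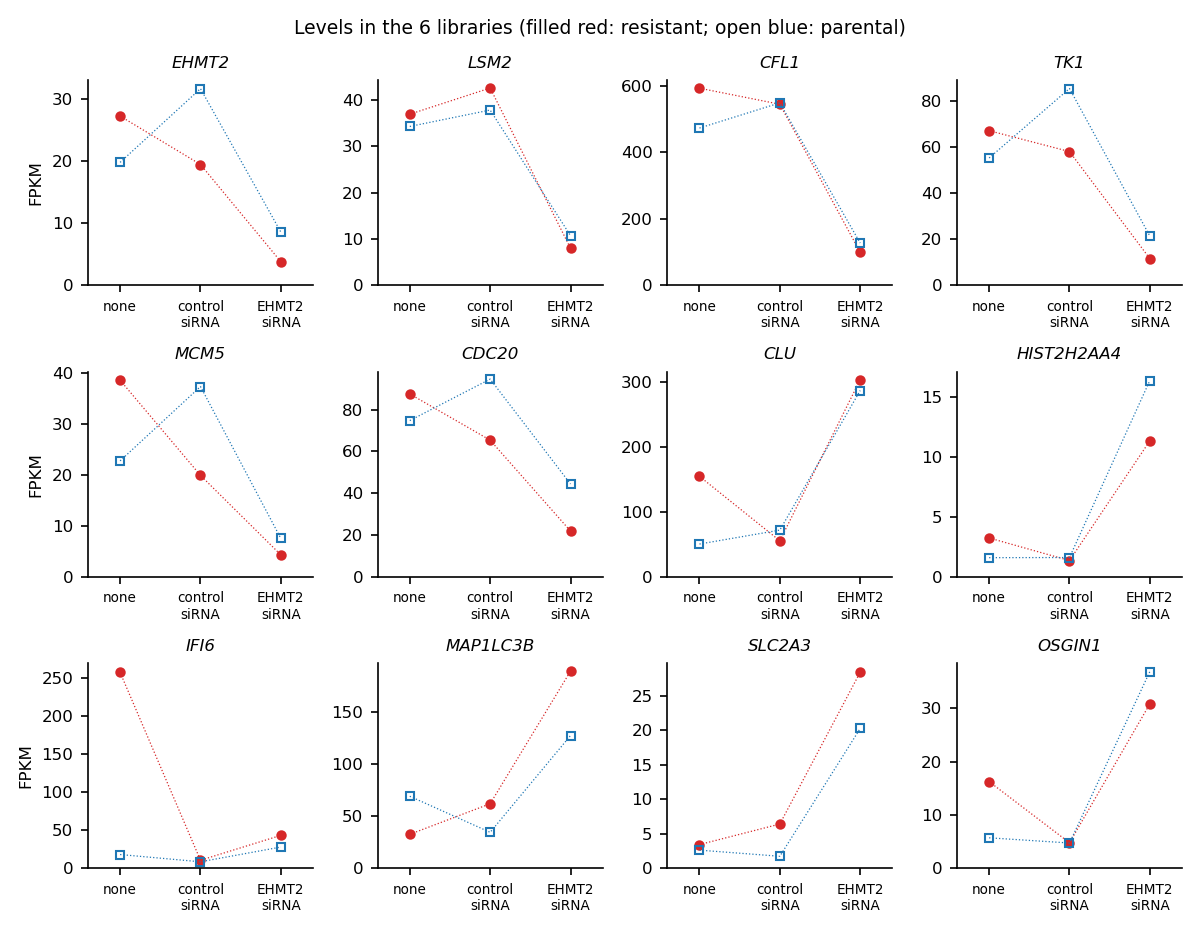
FPKM of 12 named genes in the 6 libraries, untransfected (none), control siRNA and EHMT2 siRNA, with resistant cells as filled red circles and parental cells as open blue squares; each point is 1 library and dotted lines only join a line's points. EHMT2, LSM2, CFL1, TK1, MCM5 and CDC20 are lowest with EHMT2 siRNA in both lines, and IFI6 in resistant cells is highest without transfection, at 258 FPKM.

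Genes of DNA replication and mitosis lay below the control library almost without exception. E2F transcription factors drive replication genes before S phase, and the DREAM and MuvB complexes control mitotic genes through the cell cycle genes homology region (CHR) in their promoters. Of 41 replication genes 39 were below control, 8 of them 2-fold lower and 0 higher, with a median ratio of -0.72. Of 39 G2/M and mitosis genes all 39 were below control, with 13 at least 2-fold lower and a median of -0.78. The corresponding parental medians were -0.79 and -0.72. Over all genes compared 4.04% were 2-fold lower, against 19.5% and 33.3% of these lists. In bulk RNA, fewer cells in a phase and less RNA per cell cannot be told apart.

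The promoters of the printed members carry the motifs of these regulators. Each line gives the 100 bases upstream of the start of transcription in RefSeq (GRCh38.p14), 5′ to 3′ on the gene's strand. The genes shown are members with low ratios whose motif lies in that stretch. Members with lower ratios may also hold it. Capitals mark an E2F motif (TTTGGCGC, TTTCCCGC, TTTGGCGG or TTTCCCGG) in CDT1, which loads the MCM helicase (chr16:88803689-88803788, plus strand), and CDC45, a helicase subunit (chr22:19479820-19479919, plus strand), and the CHR motif TTTGAA in CDC20, an activator of the anaphase-promoting complex (chr1:43358881-43358980, plus strand), and the mitotic kinase gene PLK1 (chr16:23678789-23678888, plus strand), each on either strand.
CDT1: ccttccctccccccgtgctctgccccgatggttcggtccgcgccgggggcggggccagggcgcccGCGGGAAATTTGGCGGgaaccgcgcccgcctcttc
CDC45: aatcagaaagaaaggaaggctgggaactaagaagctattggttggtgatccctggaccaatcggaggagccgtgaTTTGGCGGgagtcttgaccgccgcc
CDC20: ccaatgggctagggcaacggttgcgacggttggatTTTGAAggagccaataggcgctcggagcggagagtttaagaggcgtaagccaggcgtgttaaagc
PLK1: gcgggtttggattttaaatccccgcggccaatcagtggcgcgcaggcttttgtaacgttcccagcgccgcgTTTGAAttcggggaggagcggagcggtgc

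CDT1 holds 2 adjoining E2F motifs, the first starting 35 bases upstream of the start, and in CDC20 the CHR motif starts 65 bases upstream. Windows from 250 bases before to 50 bases after the start were at hand for 9603 of the genes compared. An E2F motif was present in the window of 20 of 35 replication genes (57.1%), against 9.13% of all genes compared and 4.31% of all 35116 windows. CHR was present in 21 of 31 mitosis genes (67.7%), against 13.2% of genes compared and 15.2% of all windows. A match is a description of the letters and not evidence of binding. Over all 475 genes 2-fold lower the shares were 9.95% for E2F and 17.5% for CHR, near those of all genes compared.

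MCM5, a subunit of the replicative helicase, had the lowest replication ratio, with 38.6, 19.9 and 4.31 FPKM in resistant and 22.8, 37.4 and 7.54 FPKM in parental cells. MCM3, another subunit, was at 73.7, 68.0 and 23.7 FPKM. Both were lowest with EHMT2 siRNA in each line. The members at the other end were RPA1 (0.47) and RPA2 (0.02), which encode subunits of the single-strand binding protein RPA. Against untransfected cells the replication list stood at medians of -1.38 (EHMT2 siRNA) and -0.66 (control siRNA), so the untransfected library was the highest of the 3. Parental cells had another order, with summed replication levels of 749, 1161 and 649 FPKM and mitosis sums of 943, 1390 and 855 FPKM, highest with control siRNA. There the EHMT2 siRNA library was closer to the untransfected than to the control siRNA library.

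AURKB, the kinase of the chromosomal passenger complex, was at 43.4, 48.3 and 15.1 FPKM in resistant and 38.6, 56.2 and 19.8 FPKM in parental cells. CDC20 was at 87.5, 65.4 and 21.9 FPKM in resistant and 74.8, 94.6 and 44.4 FPKM in parental cells. Within each line both genes were lowest with EHMT2 siRNA. The highest mitotic ratios, those of the cytokinesis genes ANLN (-0.07) and ECT2 (-0.08), were just below 0. Against untransfected cells all 39 members were lower with EHMT2 siRNA, at a median of -1.20, and the control siRNA median was -0.36.

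Regulators of the G1/S step were less uniform. Of 26 members 7 lay above and 19 below control, with a median of -0.35. The 1 member at least 2-fold higher (3.85%) and the 2 lower (7.69%) make shares near those of all genes (5.22% and 4.04%). MYC, which drives growth and cell cycle entry, was at 68.9, 92.2 and 28.6 FPKM in resistant and 143, 64.1 and 25.1 FPKM in parental cells. CDK4, the kinase partner of D-type cyclins, was at 65.6 FPKM with control and 25.3 with EHMT2 siRNA, and shares 43.2% of its exonic bases with TSPAN31. CDKN1C, which encodes the CDK inhibitor p57, went the other way at 2.54, 5.30 and 20.8 FPKM in resistant and 5.17, 3.62 and 13.2 FPKM in parental cells. MXD1, a MYC antagonist, had a ratio of 0.73.

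Enzymes of deoxynucleotide supply include thymidylate synthase, the target of the drug, and the salvage kinase of thymidine. Of 16 members 6 were above and 10 below control, with 4 at least 2-fold lower (25%, against 4.04% of all genes), 0 higher and a median of -0.33. TK1, thymidine kinase of the cytosol, was at 67.2, 58.1 and 11.6 FPKM in resistant and 55.3, 85.5 and 21.4 FPKM in parental cells. RRM2, the S-phase subunit of ribonucleotide reductase, was at 92.5, 63.3 and 22.02 FPKM. RRM2B, the p53-induced form of that subunit, differed in direction at 22.5, 13.5 and 24.2 FPKM (0.80), as did DCTD, which makes dUMP from dCMP (0.59).

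Histone genes split by where they lie. The clustered genes are replication-dependent, their messages normally end in a stem-loop without a poly(A) tail, and some also give polyadenylated messages. Of 65 clustered genes listed 22 were at 0 in all 6 libraries and 17 were compared. All 17 lay above control and 13 were at least 2-fold higher, at medians of 1.36 (resistant) and 1.92 (parental). The share of all genes 2-fold higher was 5.22%. A member below 1 FPKM with control siRNA, such as HIST1H2BC, was compared only through its level with EHMT2 siRNA. The filter therefore sets part of these counts, and they are a description only. The median of the 17 genes against untransfected cells was 0.60. HIST2H2AA4 was at 3.25, 1.36 and 11.4 FPKM in resistant and 1.60, 1.61 and 16.4 FPKM in parental cells. HIST2H2AA3, at 3.18, 1.32 and 11.05 FPKM, is a near-identical copy, so the reads of these 2 genes may be split between them. HIST1H2BC was at 1.85, 0.207 and 5.20 FPKM. No clustered gene exceeded 50.2 FPKM with EHMT2 siRNA, or 12.3 FPKM with control siRNA.

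The 9 variant and linker histone genes outside the clusters had a median of -0.66, with 3 above control. H2AFX, which encodes the variant phosphorylated at DNA breaks, was at 76.5, 41.6 and 18.6 FPKM (-1.12), and the linker gene H1FX had a ratio of -0.99. The library kit, TruSeq RNA v2, selects polyadenylated RNA, so these data hold the clustered genes only as far as their messages carry a tail. The promoter of HIST2H2AA4 (H2AC19 in RefSeq, chr1:149850961-149851060, plus strand) is shown because it has the highest ratio of the group, with CCAAT boxes on either strand in capitals.
HIST2H2AA4: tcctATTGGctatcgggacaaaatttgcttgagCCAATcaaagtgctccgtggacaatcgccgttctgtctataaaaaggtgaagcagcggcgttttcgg

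A CCAAT box was in the window of 20 of 24 histone genes (83.3%), of 43.4% of all genes compared and of 43.4% of those 2-fold higher.

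Cytosolic ribosomal protein genes were lower with EHMT2 siRNA as a body. Of 79 members 78 lay below control, against 45.7% of all genes, and 13 were at least 2-fold lower (16.5%, against 4.04%) and 0 higher, with a median of -0.67 in resistant and -0.53 in parental cells. RPS3, a protein of the small subunit, was at 592, 1278 and 371 FPKM in resistant and 1307, 849 and 308 FPKM in parental cells. RPL14, of the large subunit, was at 173, 448 and 163 FPKM. RPL35A (0.00) and FAU (-0.08) had the highest ratios. The control siRNA library was the highest of the resistant 3. The summed level of the list was 36645 FPKM untransfected, 73207 with control and 44238 with EHMT2 siRNA, and its median against untransfected cells was 1.09 for control and 0.34 for EHMT2 siRNA. In parental cells the sums were 72076, 48557 and 33482 FPKM, with the untransfected library highest. The order against untransfected cells therefore differed between the lines, while in each the EHMT2 siRNA library was below its control.

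Translation factors were divided (16 above and 21 below control, median -0.07), with 7 at least 2-fold lower (18.9%, against 4.04% of all genes). The lowest were EEF1B2 at 473, 846 and 169 FPKM, and EEF1G at 461, 1521 and 491 FPKM, which encode exchange factor subunits of elongation factor 1. The exons of EEF1G lie almost wholly (99.9%) within AP002990.1. EIF4G2, a scaffold for cap-independent initiation, was at 151 FPKM with control and 251 with EHMT2 siRNA (0.73), and EIF4E, the cap-binding protein, at 12.7 and 19.5 FPKM (0.58). Of 39 ribosome biogenesis genes 13 were above and 26 below control, with a median of -0.17. Only NHP2 (-1.07) was at least 2-fold lower (2.56%, against 4.04% of all genes).

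**Figure D3:**
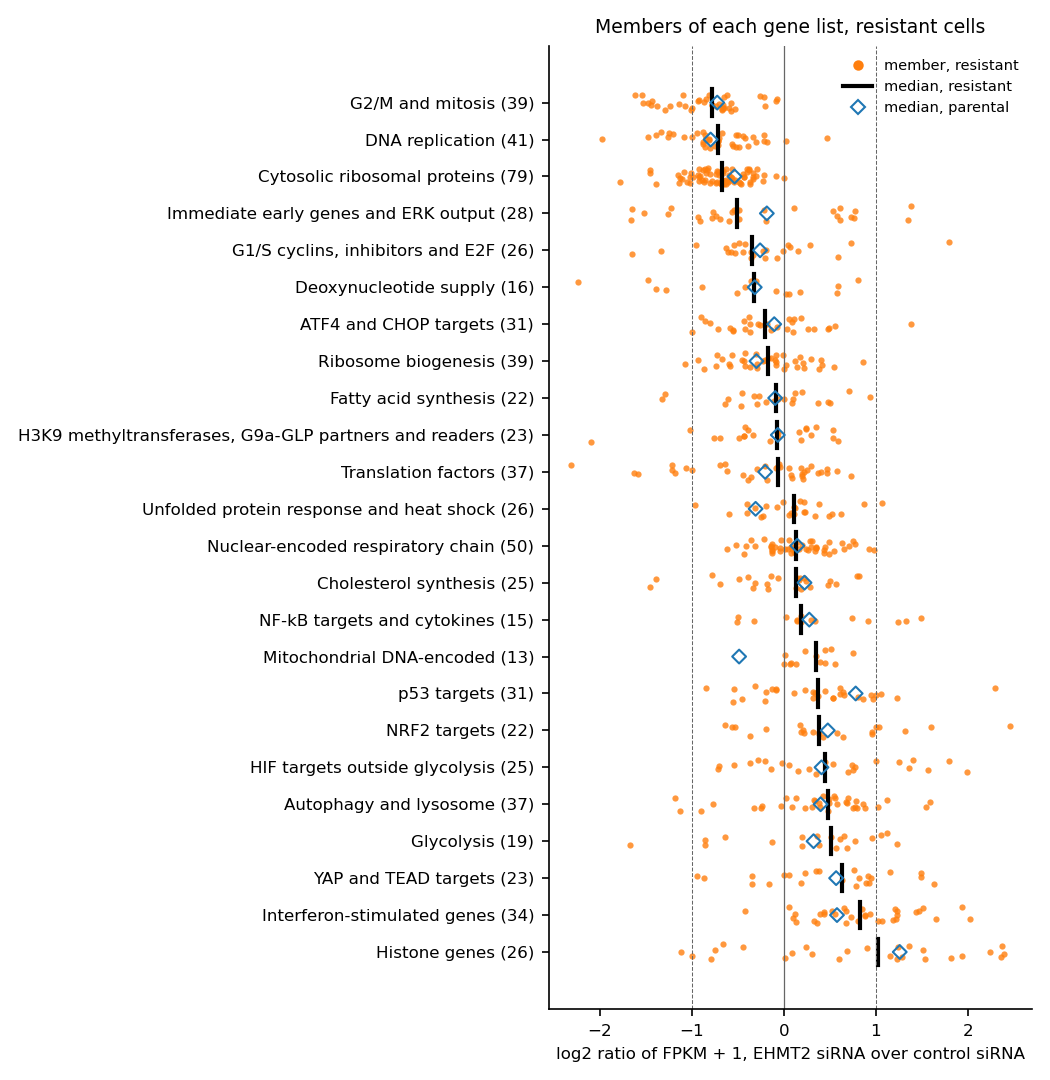
Log2 ratios of FPKM + 1 (EHMT2 siRNA over control siRNA) in resistant cells for the members of 24 gene lists, 1 orange point a gene, with the number compared in parentheses, the median as a black bar and the median of the same genes in parental cells as a blue diamond; dashed lines mark 2-fold. Mitosis, replication and ribosomal protein genes lie left of 0 with few exceptions, interferon-stimulated genes lie right of it, and the mitochondrial DNA list has its medians on opposite sides, at 0.35 and -0.49.

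Interferon-stimulated genes were higher than in the control library. They are switched on when transcription factors activated by interferon bind the interferon response element, a pair of GAAA runs set 2 bases apart. Of 34 members compared 33 lay above control, 13 at least 2-fold higher (38.2%, against 5.22% of all genes) and 0 lower, with a median of 0.82 in resistant and 0.58 in parental cells. IRF9, a DNA-binding transcription factor that reads this element, was at 14.5, 1.34 and 8.53 FPKM in resistant and 2.48, 1.94 and 8.53 FPKM in parental cells. IRF9 shares 48.4% of its exonic bases with AL136295.5. IFI6, a mitochondrial protein that inhibits apoptosis, was at 258, 10.6 and 43.4 FPKM in resistant and 18.1, 8.58 and 28.0 FPKM in parental cells. OAS3, which makes the 2-5A second messenger, was the member below control (36.5, 7.53 and 5.38 FPKM), and HERC6 was at 7.22, 2.56 and 2.71 FPKM. The list was highest in the untransfected resistant library. Its summed level was 1922, 765 and 1652 FPKM in resistant and 899, 639 and 1271 FPKM in parental cells, and the median against untransfected resistant cells was -0.69 after EHMT2 siRNA and -1.21 after control siRNA.

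The element is marked in capitals in the upstream stretches of IFI6 (chr1:27672193-27672292, minus strand) and of IFITM3, which blocks viral entry (chr11:320861-320960, minus strand). Both are members with high ratios that hold it there, and other such members may exist.
IFI6: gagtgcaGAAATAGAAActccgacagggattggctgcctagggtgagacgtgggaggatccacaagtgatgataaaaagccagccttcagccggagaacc
IFITM3: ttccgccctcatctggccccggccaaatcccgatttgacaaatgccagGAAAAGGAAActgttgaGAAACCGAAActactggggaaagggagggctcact

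In IFITM3 there are 2 matches and in IFI6 there is 1, starting 93 bases upstream. The element was in the window of 19 of 27 interferon-stimulated genes (70.4%) and of 3.78% of all genes compared. Among all genes 2-fold higher, which include the 13 list members so counted, 7.34% held it, and among those 2-fold lower 1.61%. Class I antigen presentation, part of which is interferon-driven, did not follow as a list. Its 16 members had a median of -0.08 with 0 past 2-fold, from HLA-F (-0.98) to TAP2 (0.62) and the immunoproteasome gene PSMB9 (0.65). Of 27 NF-kB targets and cytokines listed 15 were compared, and 3 were at least 2-fold higher (20%, against 5.22%) and 0 lower, with a median of 0.19. They included the chemokine gene CXCL8 at 2.30, 0.902 and 4.36 FPKM and the iron-binding protein gene LCN2 at 5.10, 1.47 and 5.22 FPKM, and CXCL1 (-0.51) was the lowest member. CXCL8 passed the filter of 1 FPKM only through the EHMT2 siRNA library, so the share of 20% depends in part on that filter.

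Targets of YAP and TEAD, the outputs of the Hippo pathway, were above control in 17 of 23 cases (all genes, 54.3%), with 4 at least 2-fold higher (17.4%, against 5.22%) and 0 lower. The median was 0.63 in resistant and 0.57 in parental cells, and 0.47 against untransfected cells. AJUBA, a LIM-domain scaffold that restrains the Hippo kinases, was at 7.62, 6.29 and 21.7 FPKM in resistant and 4.77, 5.24 and 30.3 FPKM in parental cells. ARHGEF17, a guanine nucleotide exchange factor, was at 4.94, 3.71 and 12.3 FPKM. In both lines these 2 genes were highest with EHMT2 siRNA. The lowest members, WWTR1 (TAZ, -0.94) and TEAD3 (-0.86), are transcription regulators of the pathway and not outputs. The counts and medians of the list include them. The upstream stretch of AJUBA (chr14:22976843-22976942, minus strand), the member with the highest ratio, carries the TEAD motif GGAATG.
AJUBA: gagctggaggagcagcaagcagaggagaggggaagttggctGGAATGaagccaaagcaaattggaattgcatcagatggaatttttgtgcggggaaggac

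That motif was in the window of 8 of 16 list members (50%) against 14.6% of all genes compared and 18.1% of those 2-fold higher.

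Hypoxia-inducible factor targets outside glycolysis were above control in 17 of 25 cases (all genes, 54.3%), with 6 at least 2-fold higher (24%, against 5.22%), 0 lower and a median of 0.44 (0.41 in parental cells). SLC2A3, the glucose transporter GLUT3, was at 3.44, 6.42 and 28.4 FPKM in resistant and 2.63, 1.74 and 20.3 FPKM in parental cells. ANGPTL4, an inhibitor of lipoprotein lipase, was at 3.69, 2.23 and 10.2 FPKM in resistant cells. Both were highest with EHMT2 siRNA. PFKFB3 (-0.71) and MXI1 (-0.71) had the lowest ratios. Glycolytic enzymes were above control in 14 of 19 cases, with a median of 0.51. Among them 3 were at least 2-fold higher (15.8%, against 5.22% of all genes) and 1 lower (5.26%, near the 4.04% of all genes). ALDOC, an aldolase, was at 26.2, 32.3 and 76.9 FPKM, and hexokinase gene HK2 at 8.55, 8.09 and 18.7 FPKM. GAPDH ran counter to the list at 2535, 2081 and 652 FPKM in resistant and 1627, 1764 and 669 FPKM in parental cells. PFKL, a phosphofructokinase, was also lower (-0.85).

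Targets of NRF2, the regulator of antioxidant genes, were above control in 17 of 22 cases (all genes, 54.3%), with 5 at least 2-fold higher (22.7%, against 5.22%), 0 lower and a median of 0.38. Besides OSGIN1 the highest was SRXN1, sulfiredoxin, at 49.99, 29.2 and 90.7 FPKM, which shares 85.0% of its exonic bases with AL121758.1. The ferritin light chain FTL (2286, 668 and 430 FPKM) and the quinone reductase NQO1 (139, 158 and 107 FPKM) were at the low end. The list thus held well-known targets on both sides of the control. The antioxidant element TGACNNNGC was in the window of 4 of 16 members (25%), near the 19.3% of all genes compared. For the hypoxia core motif ACGTG the shares were 12 of 20 hypoxia targets (60%) and 12 of 19 glycolytic genes (63.2%) against 32.8%, and for the amino acid response element TGATGNAA 8 of 25 ATF4 and CHOP targets (32%) against 2.51%.

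Autophagy and lysosome genes were above control in 29 of 37 cases (all genes, 54.3%), 4 at least 2-fold higher (10.8%, against 5.22%) and 2 lower (5.41%, near 4.04%), at medians of 0.49 (resistant) and 0.40 (parental). MAP1LC3B, which encodes the LC3 protein of autophagosome membranes, was at 32.6, 61.9 and 189 FPKM in resistant and 69.1, 34.5 and 127 FPKM in parental cells. GABARAPL1, of the same family, was at 14.5, 16.9 and 51.1 FPKM. The 2 genes that were 2-fold lower encode lysosomal proteins, the saposin precursor PSAP (170, 289 and 127 FPKM) and the protease CTSD (51.9, 47.6 and 21.2 FPKM, with 52.7% of its exonic bases shared).

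Of 31 p53 targets 21 were above control (all genes, 54.3%), 3 at least 2-fold higher (9.68%, against 5.22%) and 0 lower, with a median of 0.37 in resistant and 0.78 in parental cells. PHLDA3, an inhibitor of AKT, was at 19.2, 5.31 and 29.99 FPKM and SFN, which encodes 14-3-3 sigma, at 193, 120 and 283 FPKM. GDF15, a stress cytokine, was at 162, 160 and 88.1 FPKM (-0.85), and the TORC1 inhibitor gene SESN2 had a ratio of -0.55. In the BCL2 family the apoptosis effector BAX was at 45.2, 23.1 and 49.1 FPKM (1.06) and the survival gene MCL1 at 35.2, 48.6 and 69.2 FPKM (0.50), while the list median was 0.19 over 14 members. BBC3, which encodes PUMA, was at 20.5 FPKM with control and 14.7 with EHMT2 siRNA.

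Immediate early and ERK output genes went both ways, with 10 of 28 above and 18 below control and a median of -0.51 (-0.18 in parental cells). Of these 2 were at least 2-fold higher (7.14%, near the 5.22% of all genes) and 5 lower (17.9%, against 4.04%). ATF3 was at 23.7, 20.4 and 55.0 FPKM in resistant and 26.9, 6.21 and 40.9 FPKM in parental cells, and JUN, a partner in AP-1, at 41.3, 13.7 and 36.3 FPKM. KLF2, a zinc finger factor, was at 21.1, 26.8 and 7.82 FPKM, and MYC, on this list too, is given above. ATF4 and CHOP targets had a median of -0.20 over 31 members, and EIF4EBP1 (-0.99) and TRIB3 (-0.90) were lowest. Only ATF3 was past 2-fold, on the higher side (3.23%, against 5.22% of all genes). Among EGF family genes the ligand genes AREG (27.8, 116 and 49.1 FPKM) and EREG (21.0, 65.3 and 36.7 FPKM) had the lowest ratios of 9 members, and for both the untransfected library was the lowest of the 3 resistant ones.

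Lipid synthesis lists had medians near 0, at 0.14 over 25 cholesterol genes and -0.08 over 22 fatty acid genes. Each had 2 members at least 2-fold lower (8% and 9.09%, against 4.04% of all genes) and 0 higher (all genes, 5.22%). SREBF2, the transcription factor of the cholesterol pathway, was at 40.9, 54.1 and 20.1 FPKM. FASN, fatty acid synthase, was at 120, 239 and 95.1 FPKM and the desaturase gene SCD at 650, 756 and 307 FPKM. These 3 genes had negative ratios in parental cells as well, from -1.07 (SCD) to -0.65 (FASN). The enzyme genes IDI1 (0.82) and NSDHL (0.79) were the highest of the cholesterol list.

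The 13 protein-coding genes of mitochondrial DNA had a median ratio of 0.35 in resistant cells, where 12 of 13 were above control, and of -0.49 in parental cells, where 12 of 13 were below. Their median level was 4162, 2347 and 2565 FPKM in resistant and 7753, 6115 and 4117 FPKM in parental cells. MT-ND1, a complex I subunit, was at 2361, 1151 and 1939 FPKM in resistant and 4279, 3759 and 3418 FPKM in parental cells. No member reached 2-fold, and the difference between the lines was not tested. The 50 nuclear-encoded respiratory chain genes had medians of 0.13 and 0.15 and also 0 members past 2-fold.

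In epithelial genes the keratins parted. KRT19 was at 618, 720 and 202 FPKM in resistant and 408, 496 and 175 FPKM in parental cells (-1.83 and -1.50). KRT18 was at 621, 602 and 1053 FPKM in resistant and 445, 469 and 997 FPKM in parental cells (0.80 and 1.09), and its dimer partner KRT8 had a ratio of 0.38. Over the 28 junction and keratin genes the median was 0.11, with 1 member at least 2-fold in each direction. That is 3.57% each, against 5.22% higher and 4.04% lower over all genes. The BMP targets ID1 (223, 156 and 66.2 FPKM) and ID3 (44.5, 36.5 and 15.6 FPKM) were the lowest of 19 WNT target and lineage genes.

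Of 14 mesenchymal and EMT genes 8 were above control, 4 at least 2-fold higher (28.6%, against 5.22%) and 1 lower (7.14%, against 4.04%), with a median of 0.21. The smooth muscle actin gene ACTA2 was at 6.80, 4.14 and 11.1 FPKM, with 30.1% of its exonic bases shared, and CNN1, smooth muscle calponin, was listed at 0 with control and at 1.46 FPKM with EHMT2 siRNA. CNN1 thus passed the filter only through the EHMT2 siRNA library, so the share of 28.6% depends in part on that filter. SPARC, a matrix glycoprotein, was at 0, 4.98 and 0.850 FPKM, and the fibronectin gene FN1 had a ratio of -0.88. Of 24 integrin and matrix genes 1 was past 2-fold in each direction, ITGB8 (1.14) and the protease gene PLAU (-1.16), around a median of -0.21. That is 4.17% each, near the shares of all genes (5.22% and 4.04%). Of 26 unfolded protein response and heat shock genes only the co-chaperone gene DNAJA1 (1.06) was past 2-fold (3.85%, near the 5.22% of all genes higher). The medians of that list were 0.11 in resistant and -0.31 in parental cells. Of 43 germline genes, a class often silent in somatic cells, 6 were compared and 0 were past 2-fold, with STAG3 (0.79) and TEX14 (0.81) highest.

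**Figure D4:**
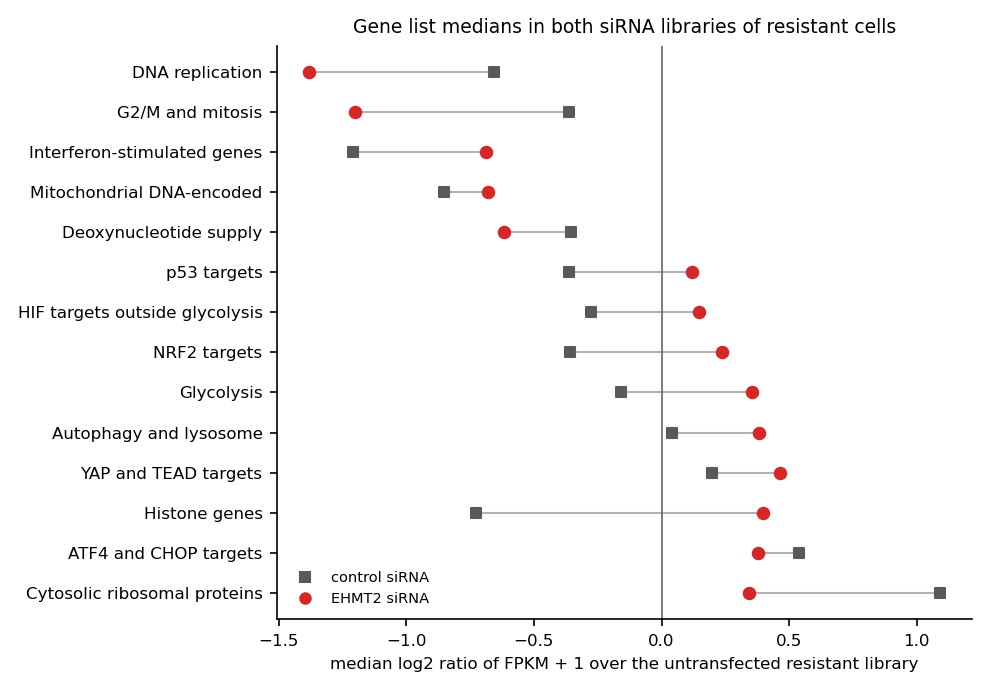
Median log2 ratio of FPKM + 1 over the untransfected resistant library for 14 gene lists, with control siRNA as grey squares and EHMT2 siRNA as red circles; both share the untransfected library. Replication (-0.66 and -1.38) and mitosis genes lie left of 0 with EHMT2 siRNA further left, the interferon list is left of 0 in both, and ribosomal protein genes are right of 0 with control siRNA furthest (1.09 and 0.34).

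Against the untransfected library the lists fell into 3 arrangements. For replication, mitosis and deoxynucleotide genes the EHMT2 siRNA library was furthest below untransfected cells, at medians of -1.38, -1.20 and -0.62. Glycolysis, autophagy and YAP target lists were above them, at 0.35, 0.38 and 0.47. For interferon and ribosomal protein genes the EHMT2 siRNA library lay between the control siRNA and the untransfected library.

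Genes that differed most between the lines were named among those at 5 FPKM or more in each pair. Where the resistant ratio exceeded the parental one, AC023055.1 (4.26) and PDXP (2.30), both at overlapping loci, were followed by FOS (2.099), ITM2B (1.74) and SOD2 (1.66). FOS, an AP-1 subunit, was at 237, 4.93 and 8.07 FPKM in resistant and 345, 14.99 and 4.71 FPKM in parental cells, so that both untransfected libraries stood far above all 4 siRNA libraries. SOD2, the mitochondrial superoxide dismutase, was at 26.3, 27.4 and 52.7 FPKM in resistant and 24.9, 34.4 and 20.1 FPKM in parental cells. At the other end were PIK3R2 (-2.53), IFI30 (-2.19), AC004922.1 (-1.86) and TMEM33 (-1.52), of which TMEM33 alone shares no exonic bases. TMEM33, an endoplasmic reticulum membrane protein, was at 20.2, 19.8 and 10.6 FPKM in resistant and 10.9, 12.8 and 21.2 FPKM in parental cells. None of these differences between the lines was tested.

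Within 150 kb of EHMT2 18 other genes were compared. Their median ratio was 0.32, against 0.06 for all genes, and 12 lay above control (all genes, 54.3%). Of the 18, 2 were at least 2-fold higher and 2 lower (all genes, 5.22% and 4.04%). LSM2, whose upper coordinate lies 72775 bases below the lower coordinate of EHMT2, was the lowest (-2.28, and -1.73 in parental cells). It was followed by the host gene of small nucleolar RNAs SNHG32 at 77.2, 121 and 53.8 FPKM. Complement factor B (CFB), at 1.80, 0.507 and 6.53 FPKM with 45.5% of its exonic bases shared, and DDAH2, at 20.9, 21.7 and 48.3 FPKM, were the 2 higher genes. The ratio of EHMT2 (-2.09) was therefore not shared by most genes around it.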

How the data were processed

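RNA of 6 HCT116 samples was sequenced from TruSeq RNA v2 libraries, per the labels' protocols. StringTie 2.1.1, HISAT2 2.2.1, cutadapt 4.9, FastQC 0.12.1 and build GRCh38 were used, per the submitters' processing notes. No source used here gives the annotation release or strandedness. The authors deposited FPKM, 1 table of 19957 rows a library; depth is unknown. From these, tables were joined by gene, the row of highest mean was kept for each of 19942 symbols, and log2 ratios of FPKM + 1 were computed (Python 3.11.15, pandas 2.3.3, numpy 2.4.6). The counting code was run on simulated data, with changes beyond the threshold planted in well-expressed genes only. That run checks the code and not the values reported here. Coordinates and shared exonic bases came from GENCODE 29 (19887 symbols), promoters from RefSeq, matched by symbol.

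Named were, at 5 FPKM or more in either resistant siRNA library, the 15 highest and 15 lowest ratios; at 5 FPKM or more in either library of each pair, the 5 highest and 5 lowest by resistant minus parental ratio; EHMT2 and EHMT1; and from each list described, of 35 in all, its 2 members at either end. Other genes named (partners at overlapping loci, genes around EHMT2, markers, members with printed promoters, WIZ, ZNF644, UHRF1) were chosen with values seen. The comparison, members and lists were chosen with earlier results of these data known. Alternatives changed the pseudocount, filter, scaling, fold and overlapping genes. Some genes that this rule takes are not reported here, while counts and medians include them.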

Additional observations from a re-analysis of the deposited data

Results flagged for a closer look

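The following results lay on opposite sides of 0 in resistant and parental cells, by at least 1.25-fold in each. With 1 library a group none of these differences between the lines was tested. The mitochondrial DNA-encoded list had a median ratio of 0.35 in resistant and -0.49 in parental cells. FOS had ratios of 0.61 and -1.48, SOD2 of 0.92 and -0.75, and TMEM33 of -0.84 and 0.69. Z83844.3 had ratios of -2.85 and 1.48. AC008878.1 stood at -2.81 and 1.03, but was listed at 0 in the parental control library. AC117378.1 stood at 3.33 and -1.18, but was listed at 0 in the resistant control library, so these values depend on the 1 added and are no folds. The last 3 genes share 80.1% to 100% of their exonic bases with other genes.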

How the results depend on the processing

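With a pseudocount of 0.1 in place of 1 the counts were 981 genes higher and 757 lower. At 1.5-fold they were 1908 and 1571, and at 4-fold 35 and 27. The other 6 settings (no filter, FPKM of 5 or more, median-centred ratios, equal sums, quantile normalisation, no overlapping genes) gave 435 to 708 higher and 400 to 566 lower genes. Median-centring put the lower genes in the majority, with 504 higher and 566 lower, as did quantile normalisation with 507 and 522. The medians of 33 lists kept their side of 0 under 4 settings, except that of WNT targets and intestinal lineage, -0.02 as reported and 0.018 with equal sums. The histone median moved to 1.92 with a pseudocount of 0.1. That of cytosolic ribosomal proteins kept its side but went from -0.67 to -0.39 after quantile normalisation. Of 212 gene ratios 24 moved by over 1.5-fold with a pseudocount of 0.1, such as ACAP1 (6.41) and HIST1H2BC (4.11), and 2 after quantile normalisation, FTH1 (1.85) and MT-ND6 (1.51). Ratios past 2-fold kept their sign under the 4 settings. No paired analysis was possible because the comparison within resistant cells has 1 library a side and so no residual degrees of freedom. Depth is unknown, so counting error at low FPKM is not known.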
